A study of Saccharomyces cerevisiae with 26 samples.

Results

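Loss of Fkh2 function in budding yeast (Saccharomyces cerevisiae) cells that already lack Fkh1 was followed at every place in the genome where replication started, by comparing the strain labelled fkh1Δfkh2Δ2C with the strain labelled fkh1Δ. The comparison rests on 4 BrdU immunoprecipitation libraries of the 26 libraries in the series, 2 of each strain, and uses all 50 bp bins of the genome, summarised as 389 peaks and as windows of 1 kb. The tested strain carries fkh1Δ together with a change written fkh2Δ2C. The labels do not describe this change or say whether 2C is part of an FKH2 allele. The other strain carries fkh1Δ with FKH2 left as it is, so fkh1Δ is common to both. Single fkh2Δ cells and wild-type (WT) cells gave 2 libraries each and form a second contrast in which FKH1 is present. Cells labelled fkh1Δfkh2Δ, also with 2 libraries, are given beside the others. All 5 strains were grown in rich medium (YEPD) at room temperature, arrested in G1 by 4 hours in α-factor, then moved into medium with hydroxyurea and BrdU for 1 hour. No label says that replicates came from separate cultures, so the p-values measure a spread between libraries that may be technical. That spread was estimated over all 5 strains together, and the replicates of fkh1Δfkh2Δ2C differed more than those of any other strain.

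Chromosomes begin to replicate at origins, short sites that are loaded with the replicative helicase in G1 and activated at different times in S phase. Hydroxyurea starves cells of deoxynucleotides, so forks from the origins that fire early move a short way and slow down, and BrdU, a thymidine analogue, marks the DNA they made. FKH1 and FKH2 encode related Forkhead transcription factors, known in yeast for the periodic expression of the CLB2 cluster of G2/M genes and for promoting the early firing of many origins. Origins near chromosome ends usually fire late, and those near centromeres usually fire early.

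Each library holds a normalized signal per bin, scaled by the authors in a way that no source used here describes. Library means lay between 9.84 and 9.86 units and medians between 2.60 and 2.66, so the table shows how signal was spread over the genome, not how much there was, and its depth is unknown. Agreement between replicates was lower for fkh1Δfkh2Δ2C, with a median absolute log2 difference of 0.290 across peaks, against 0.0830 for fkh1Δ. The labels were checked by the signal inside each gene as a percentage of its flanks. Across FKH1 it was 73.6% and 74.7% in fkh1Δfkh2Δ2C and 65.3% and 68.5% in fkh1Δ, against 88.3% and 90.0% in WT. Across FKH2, the library labelled fkh1Δfkh2Δ2C replicate 1 had 96.3% and replicate 2 had 61.2%, whereas fkh1Δ had 107% and 115% and fkh2Δ had 42.8% and 40.2%. In both fkh2Δ libraries the signal inside FKH2 was below that of either flank. In the second fkh1Δfkh2Δ2C library it was 23.1, between flanks of 14.1 and 61.5, and in the first 31.5, between 22.5 and 42.9. Neither thus showed the dip of fkh2Δ. Cells labelled fkh1Δfkh2Δ had 67.8% and 39.2% across FKH2 and 80.3% and 84.1% across FKH1, so these percentages separate the strains poorly. The strain tag of the second fkh2Δ library reads fkh1Δ, while its title and its FKH2 signal go with fkh2Δ. The first fkh1Δfkh2Δ2C library had the higher percentage across FKH2 of the strain. The main peak counts for fkh1Δfkh2Δ2C over fkh1Δ are therefore also given without this library, as are the calls at named peaks that depended on it. A fit without it leaves 1 library of this strain, so the spread then comes from the other strains alone. Its counts and calls are descriptions, as are those without replicate 2.

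Replication signal was redistributed at most peaks. Of 389 peaks, 185 rose in fkh1Δfkh2Δ2C relative to fkh1Δ (47.6%), 98 fell (25.2%) and 106 were not called, so that 72.8% changed. A peak could enter this set by being high in fkh1Δfkh2Δ2C alone, which favours rises. Of 319 peaks called from WT and fkh2Δ alone, 119 rose (37.3%) and 99 fell (31.0%). A peak is a local maximum of at least 3 times the genome median, its value is the mean signal within 2.5 kb, and a call is a Benjamini-Hochberg adjusted p under 0.05 in limma on log2(signal + 1.73). The median change was 0.92 on the log2 scale among peaks that rose and -0.86 among those that fell. Rises of at least 1 log2 unit were seen at 77 peaks and falls of that size at 42, while changes of at least 2 log2 units comprised 1 rise and 9 falls. Both fkh1Δfkh2Δ2C libraries lay above both fkh1Δ libraries at 208 peaks (53.5%) and below them at 120 (30.8%), and the groups overlapped at 61.

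The split between rises and falls depended on the scale. With each library centred on its median peak, a shift of 0.45 log2 units downward for this contrast, 114 peaks rose (29.3%) and 161 fell (41.4%). All 98 falls were still called, 71 rises were no longer called, and 0 rises turned into falls. With only the 4 compared libraries in the fit and no centring, 169 peaks rose and 87 fell. Without the library labelled fkh1Δfkh2Δ2C replicate 1, 216 peaks rose and 91 fell, and without replicate 2 the counts were 167 and 111. Of the original calls, 180 rises and 89 falls were also called without the first library, and 164 rises and 93 falls without the second.

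**Figure D1:**
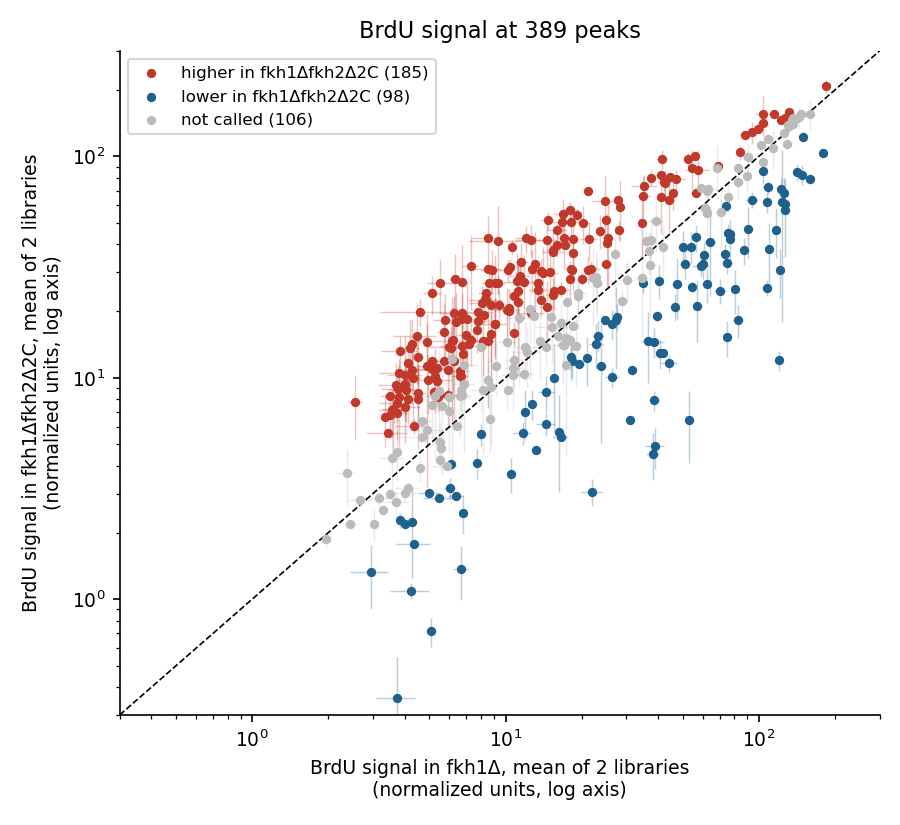
Mean BrdU signal at the 389 peaks, with fkh1Δfkh2Δ2C on the vertical axis and fkh1Δ on the horizontal axis (normalized units, log axes). Thin lines extend from the mean by the standard deviation of the 2 libraries of a strain, to each side. The dashed line marks equal signal. The 185 peaks that rose lie mostly at low fkh1Δ signal, and the 98 that fell reach from the weakest to the strongest peaks.

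The deepest losses occurred at peaks that fkh1Δ cells still used, which a ranking by the fall from fkh1Δ favours. Positions are given as in the deposited table, whose genome build no source used here states, with the genes on either side taken from the RefSeq R64 gene table. The peak between DAL2 and DCG1 on chromosome IX at 411826 had signals of 11.1 and 12.9 in fkh1Δfkh2Δ2C, against 120.1 and 120.8 in fkh1Δ. DAL2 encodes allantoicase and lies in the cluster of genes for allantoin degradation. The groups were far apart and the log2 change was -3.16 (SE 0.147, limma adjusted p 7.96e-08), which left 9.94% of the fkh1Δ signal. The fkh1Δ signals lay within the range of the strains with FKH1 present, where fkh2Δ had 115.7 and 124.2 and WT had 134.5 and 119.8. A second peak nearby, inside the allantoinase gene DAL1 at 406776, had 4.81 and 8.04 in fkh1Δfkh2Δ2C, against 52.1 and 54.0 in fkh1Δ (log2 change -2.78). Both lie in a lower stretch of 28 kb from MRS1 to GTT1, where the mean signal was 4.32 and 5.14 in fkh1Δfkh2Δ2C, against 43.0 and 44.1 in fkh1Δ.

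At several other deep falls, both fkh1Δ libraries were already below both WT libraries. The peak between RDR1, which encodes a repressor of drug-resistance genes, and FRE3, a ferric reductase gene, on chromosome XV at 1053576 had 5.32 and 3.77 in fkh1Δfkh2Δ2C, against 39.6 and 36.5 in fkh1Δ, while WT had 109 and 113. Its log2 change was -2.68. Between APA1 and YCL049C on chromosome III at 39476, signals were 13.3 and 17.3 in fkh1Δfkh2Δ2C, against 76.1 and 73.8 in fkh1Δ, and WT had 134 and 145. That difference, -2.18 log2 units, was again far larger than the spread between libraries. Between RCE1, the CAAX protease gene, and BUL1, a ubiquitin ligase adaptor gene, on chromosome XIII at 815526, fkh1Δfkh2Δ2C had 16.0 and 20.4, against 85.5 and 80.4 in fkh1Δ (-2.09).

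The rest of the 10 deepest falls lay inside YBR200W-A on chromosome II at 622976 (-2.62), inside RGI2, a gene for growth on respiratory carbon sources, on chromosome IX at 247876 (-2.30), and between YML119W and NGL3 on chromosome XIII at 31676 (-2.07). The last 2 were between JJJ3 and YJR098C on chromosome X at 613126 (-2.00) and between the disaggregase gene HSP104 and PAU17 on chromosome XII at 91726 (-1.99). Across these 10 peaks the mean signal ranged between 3.06 and 25.6 in fkh1Δfkh2Δ2C, against 21.9 to 120 in fkh1Δ. The 10 had means of 2.57 to 14.0 in cells labelled fkh1Δfkh2Δ, and of 35.9 to 133 in fkh2Δ, so signal was low in both strains that carry changes in both genes. At 5 peaks the mean was under 5 units in fkh1Δfkh2Δ2C and at least 10 in fkh1Δ. They were the peaks at RDR1, YBR200W-A and RGI2, and those between COS111 and LDH1 on chromosome II at 631976 (-1.19) and inside ATR1 on chromosome XIII at 39726 (-1.21), which were picked out after their values were seen.

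Peaks that rose most were weak or barely visible in fkh1Δ and in WT, which was partly built into their choice. They were ranked by the rise over fkh1Δ, and a peak weak in WT entered the set only through another strain. Between ASP1, the cytosolic asparaginase gene, and MRPL35, a mitochondrial ribosomal protein gene, on chromosome IV at 1110326, signals were 35.5 and 50.4 in fkh1Δfkh2Δ2C, against 9.29 and 7.69 in fkh1Δ. All other strains but fkh1Δfkh2Δ were lower still, with 2.98 and 3.83 in fkh2Δ and 2.35 and 3.77 in WT. The log2 change was 2.11 (SE 0.206, limma adjusted p 1.03e-05). Inside MIN6 on chromosome II at 143476, fkh1Δfkh2Δ2C had 21.6 and 31.9, against 5.97 and 5.09 in fkh1Δ (1.95). Inside GSP2, which encodes a Ran GTPase of nuclear transport, on chromosome XV at 681426, the signals were 29.0 and 54.3 in fkh1Δfkh2Δ2C, against 10.9 and 7.80 in fkh1Δ (1.92). The fkh1Δfkh2Δ2C libraries differed from each other here but both lay above both fkh1Δ libraries.

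The remaining 7 of the 10 largest rises spanned log2 changes of 1.69 to 1.90. They lay between NOC2 and RET1 on chromosome XV at 729726, inside SLI1 on chromosome VII at 917426, between YLR345W and CIS1 on chromosome XII at 822076, and inside NET1 and APQ13 on chromosome X at 298726. NET1 encodes the nucleolar anchor of the Cdc14 phosphatase. The others lay between SFP1, a regulator of ribosomal protein genes, and the seipin gene SEI1 on chromosome XII at 928326, between USV1 and YPL229W on chromosome XVI at 116876, and inside GTO3 on chromosome XIII at 772926. Mean signal at the 10 was 19.9 to 51.7 in fkh1Δfkh2Δ2C, against 4.60 to 14.7 in fkh1Δ. It was 15.7 to 47.5 in fkh1Δfkh2Δ, 2.68 to 6.67 in fkh2Δ and 2.05 to 6.75 in WT. Across all peaks, 13 had a mean of at least 10 units in fkh1Δfkh2Δ2C and under 5 in fkh1Δ, a count with the same limit of choice.

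**Figure D2:**
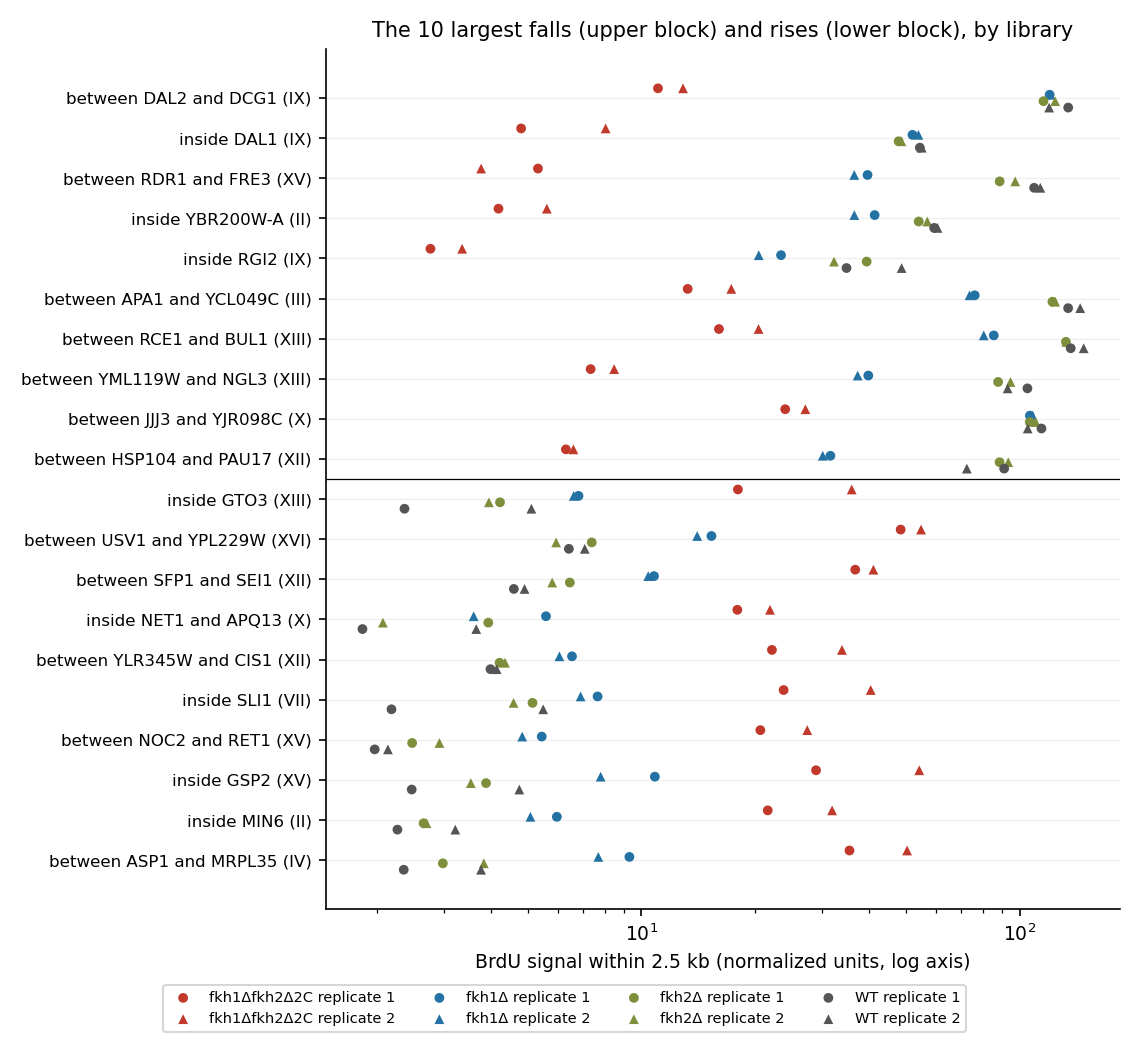
BrdU signal within 2.5 kb (normalized units, log axis) in each library at the 10 largest falls and 10 largest rises, with strains offset vertically in the order of the legend. At each of these 20 peaks the 2 fkh1Δfkh2Δ2C libraries lie on the same side of both fkh1Δ libraries, which the choice of these peaks required.

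**Figure D3:**
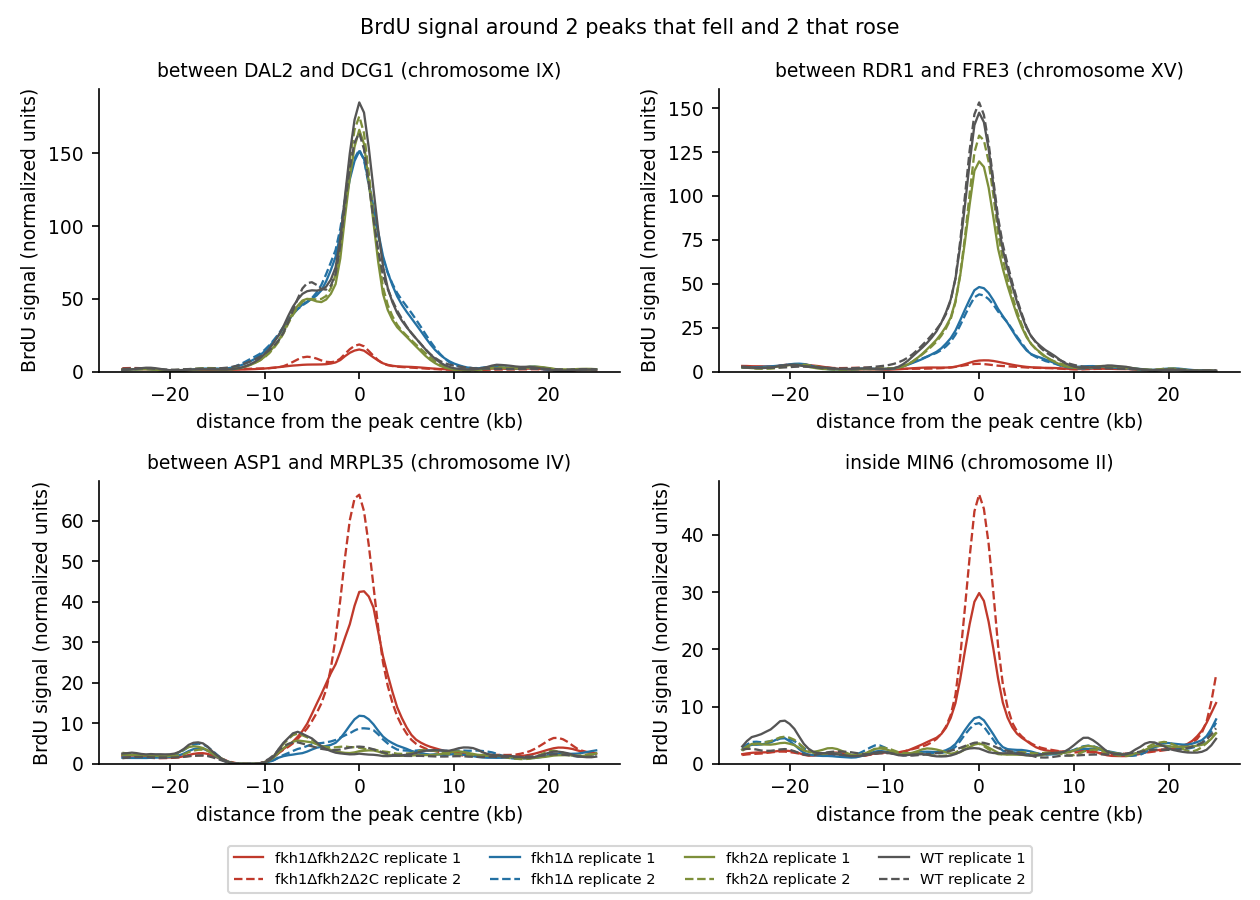
BrdU signal (normalized units, mean in bins) against the distance from the peak centre (kb) at 2 peaks that fell and 2 that rose, 1 line for each library. The fkh1Δfkh2Δ2C lines stay low beside DAL2 and RDR1 and form a peak beside ASP1 and inside MIN6 that is small in fkh1Δ and in neither fkh2Δ nor WT clearly above its surroundings.

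Change went with how strong a peak was in WT, whose libraries the contrast does not use. Peaks were divided by WT signal into 3 classes of nearly equal size. In the strongest class, 25 of 130 peaks rose and 66 fell, with a median change of -0.32. In the intermediate class, 65 of 130 rose and 20 fell (median 0.45), and in the weakest class 95 of 129 rose and 12 fell (median 0.85). With libraries centred, 7 rose and 98 fell in the strongest class, 40 rose and 44 fell in the intermediate class, and 67 rose and 19 fell in the weakest. Without the library labelled fkh1Δfkh2Δ2C replicate 1, 28 rose and 60 fell in the strongest class, and 107 rose and 13 fell in the weakest. A peak that was weak in WT could enter the set only by being high in another strain, so peaks were also taken from WT and fkh2Δ alone. Of those 319 peaks, 119 rose and 99 fell. In the strongest class of these 20 of 107 rose and 59 fell (median -0.45), and in the weakest 51 of 106 rose and 16 fell (median 0.39). Spearman's rho between the change and the WT signal was -0.617 over the 389 peaks and -0.477 over the 319, given as descriptions since peaks of 1 library are not independent.

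Shares of signal were taken over the 319 peaks called from WT and fkh2Δ, since the 389 include peaks that are there because they were high in fkh1Δfkh2Δ2C. Of all signal at these peaks, the weakest class held 12.6% and 14.0% in fkh1Δfkh2Δ2C, against 7.31% and 7.14% in fkh1Δ. The strongest class held 62.3% and 58.9% in fkh1Δfkh2Δ2C, against 73.5% and 73.9% in fkh1Δ. The strains did not overlap in either share. The number of these peaks with at least 10 units did overlap, with 229 and 254 in fkh1Δfkh2Δ2C, against 232 and 230 in fkh1Δ.

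Of the 10 peaks with the highest WT signal, 9 fell and 1 rose, the rise by a marginal call. Over all peaks 25.2% fell and 47.6% rose, and in the strongest class by WT signal 66 of 130 fell. The 10 include the peaks at APA1 and RCE1 and one at RPC17, near a centromere. The peak between ROG3 and PES4 on chromosome VI at 199726 had 25.1 and 36.0 in fkh1Δfkh2Δ2C, against 121.6 and 119.7 in fkh1Δ (-1.94). The peak between YOL024W and IFM1 on chromosome XV at 277726 fell by 1.32 on the log2 scale. Smaller falls were seen between HOG1, the osmotic-stress MAP kinase gene, and AVL9 on chromosome XII at 373726 (-0.83), between VMS1 and TPI1, the triose phosphate isomerase gene, on chromosome IV at 555226 (-0.78), between MET5 and IML1 on chromosome X at 684076 (-0.72), and between STB6 and OSI1 on chromosome XI at 302126 (-0.57). The rise was inside ECM9 on chromosome XI at 447576, 7.37 kb from the centromere, with 217 and 198 in fkh1Δfkh2Δ2C, against 183 and 186 in fkh1Δ (0.16, limma adjusted p 0.0468). The call at ECM9 was lost without the library labelled fkh1Δfkh2Δ2C replicate 1 (0.10, limma adjusted p 0.261), without either fkh1Δ library (limma adjusted p 0.172 and 0.119), with the 4 libraries alone and without the variance trend, and with libraries centred the change was -0.28 and not called.

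**Figure D4:**
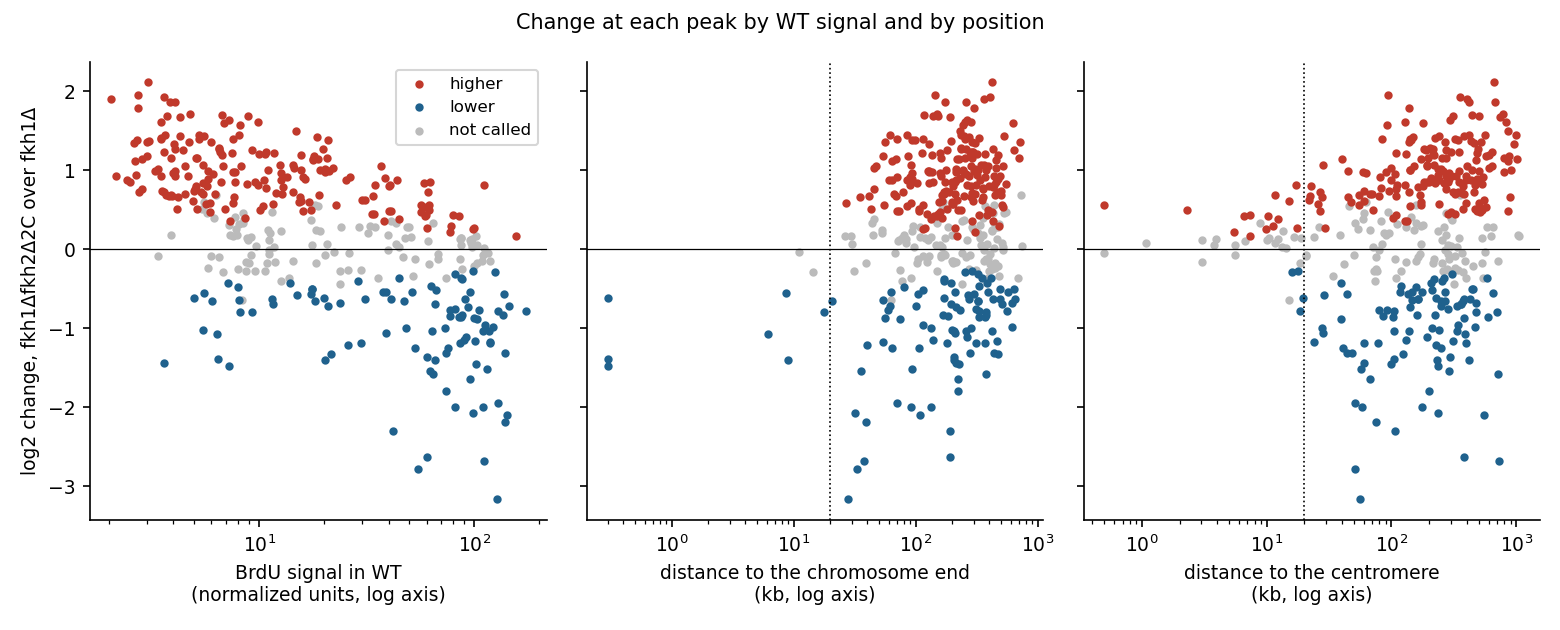
Log2 change of each peak (fkh1Δfkh2Δ2C over fkh1Δ) against its WT signal (normalized units, log axis), its distance to the chromosome end and its distance to the centromere (kb, log axes); dotted lines mark 20 kb, and the peaks closest to an end are drawn at the left edge. Nearest to the ends 7 of 9 peaks fell, and within 20 kb of a centromere changes stayed between -0.78 and 0.82.

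Near chromosome ends, signal fell at peaks that were mostly weak in fkh1Δ already. Of 9 peaks within 20 kb of an end, 0 rose and 7 fell (median -0.80), against 47.6% and 25.2% of all peaks. Their median signal was 1.77 in fkh1Δfkh2Δ2C, against 4.02 in fkh1Δ, 9.60 in fkh2Δ and 6.82 in WT. The genome median was 2.70. Without the library labelled fkh1Δfkh2Δ2C replicate 1, 8 fell, and without replicate 2, 7 fell. Between YER187W and YER188W on chromosome V at 567926, fkh1Δfkh2Δ2C had 10.5 and 11.2, against 32.2 and 30.6 in fkh1Δ (-1.40). This was the strongest of these peaks in fkh1Δ. The peaks in the first bins of 2 chromosomes, beyond YBL113C on chromosome II at 26 (-1.48) and beyond YHL050C on chromosome VIII at 26 (-1.39), were weak in fkh1Δ and had means of 0.72 and 0.36 in fkh1Δfkh2Δ2C. The other falls were between ARR3, the arsenite transporter gene, and YPR202W on chromosome XVI at 941926 (-1.08), between ADH4 and the zinc transporter gene ZRT1 on chromosome VII at 17776 (-0.80), beyond GEX2 on chromosome XI at 666426 (-0.61), and between FET4, an iron transporter gene, and YMR320W on chromosome XIII at 915726 (-0.55). Reads of the repeated sequences at chromosome ends may map to several copies, and no source used here says how such reads were treated.

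Near an end, the peak between YPR196W and SGE1 on chromosome XVI at 933726 was not called (-0.28, limma adjusted p 0.0575). Its change was -0.38 without the library labelled fkh1Δfkh2Δ2C replicate 1. The peak between MAL33 and MAL31, maltose genes, on chromosome II at 802126 was not called either (-0.04, limma adjusted p 0.811). At MAL33 the signal was 1.97 and 1.75 in fkh1Δfkh2Δ2C and 2.00 and 1.91 in fkh1Δ, against 32.8 and 37.0 in fkh2Δ and 25.0 and 19.6 in WT. It was thus low whenever FKH1 was deleted. From 20 to 40 kb, 2 of 15 peaks rose and 8 fell (median -0.66), and 5 of the 10 deepest falls of the genome lay there, those beside DAL2, DAL1, RDR1, APA1 and YML119W. Farther than 40 kb from an end, 183 of 365 peaks rose and 83 fell (median 0.40).

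Around centromeres changes were small. Of 39 peaks within 20 kb of a centromere, 14 rose, 4 fell and 21 were not called (median 0.13), against 171 rises and 94 falls among the 350 peaks farther away (median 0.43). With libraries centred, 1 of the 39 rose and 20 fell, and without the library labelled fkh1Δfkh2Δ2C replicate 1, 12 rose and 3 fell. Between RPC17, an RNA polymerase III subunit gene, and NOP9 on chromosome X at 417276, signals were 101 and 107 in fkh1Δfkh2Δ2C, against 175 and 183 in fkh1Δ (-0.78). Between RCL1 and MDM12 on chromosome XV at 309026 they were 101 and 98.7 in fkh1Δfkh2Δ2C, against 54.8 and 57.0 in fkh1Δ (0.82). Neither pair of groups overlapped.

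The peak inside PAC2 on chromosome V at 165176 rose by 0.69, and the one inside SUI2 on chromosome X at 451876 rose by 0.61. The peak between YLR012C and GAT3 on chromosome XII at 170726 fell by 0.61, and the one inside BUD14 on chromosome I at 167176 was not called (-0.65, limma adjusted p 0.0575). At BUD14 the fkh1Δfkh2Δ2C libraries disagreed, with 16.4 and 6.48, against 17.1 and 17.6 in fkh1Δ. Without the library labelled fkh1Δfkh2Δ2C replicate 1 the change at BUD14 was -1.22, and without replicate 2 it was -0.07. Each of these values rests on 1 library of the strain. The calls at SUI2 and GAT3 were lost without the first library, where their changes were 0.25 and -0.24.

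Of the 24 genes listed for the CLB2 cluster, 3 had a peak beside them. Between ASE1, a spindle midzone gene, and LPL1 on chromosome XV at 437026, fkh1Δfkh2Δ2C had 70.8 and 81.7, against 44.1 and 40.7 in fkh1Δ (0.82), whereas WT had 108 and 115. The peak between SRP68 and IQG1, an IQGAP gene of cytokinesis, on chromosome XVI at 90276 rose by 0.81 and was not called with libraries centred. The peak between TAF12 and SWI5, which encodes a transcription factor of the M/G1 transition, on chromosome IV at 748526 was not called (0.05, limma adjusted p 0.746). It had 2.72 and 2.90 in fkh1Δfkh2Δ2C and 2.47 and 2.87 in fkh1Δ, against 8.78 and 10.5 in WT, and it fell by 0.40 with libraries centred (limma adjusted p 0.0214).

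With FKH1 present, far fewer differences accompanied the loss of FKH2. In fkh2Δ against WT, 0 of 389 peaks were called by limma (0.0%) and 67 peaks passed an unadjusted p under 0.05. The median absolute difference was 0.17 log2 units, against 0.70 for fkh1Δfkh2Δ2C over fkh1Δ. A peak could enter the 389 by being high in fkh1Δfkh2Δ2C alone, which favours rises over fkh1Δ. Neither fkh2Δ against WT nor the difference of the contrasts was run over the 319 peaks called from WT and fkh2Δ. The difference between the 2 contrasts was tested itself, as fkh1Δfkh2Δ2C minus fkh1Δ less fkh2Δ minus WT. It was higher at 124 peaks (31.9%) and lower at 86 (22.1%), and with libraries centred at 76 and 127. Its median over all peaks was 0.21 log2 units, and 0.29 without the library labelled fkh1Δfkh2Δ2C replicate 1. The count of higher peaks was 77 without fkh1Δ replicate 2 and 79 without fkh2Δ replicate 2. That fkh2Δ library also had a signal of 2.56 inside BAR1, against at most 0.0546 in every other BrdU library, and the part of this in the result was not tested. The labels write fkh2Δ2C in the first contrast and fkh2Δ in the second. The difference thus also holds any effect of what 2C stands for, which cannot be told apart from the FKH1 background. Across the 389 peaks the changes of the 2 contrasts, which share no library, correlated with Pearson's r at 0.350 and Spearman's rho at 0.367, as a description.

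The largest positive differences were at ASP1 (2.00), MIN6 (1.96), GSP2 (1.86), YLR345W (1.81) and inside OPY2 on chromosome XVI at 695926 (1.73). OPY2 encodes a membrane anchor of the osmotic-stress pathway, and its peak had 33.6 and 50.2 in fkh1Δfkh2Δ2C, against 15.6 and 13.5 in fkh1Δ. The largest negative ones were at DAL2 (-3.08), DAL1 (-2.60), YBR200W-A (-2.51), RDR1 (-2.42) and HSP104 (-2.15). At HSP104 the signals were 6.31 and 6.61 in fkh1Δfkh2Δ2C, against 31.6 and 30.2 in fkh1Δ, while fkh2Δ had 88.6 and 93.4 and WT had 91.1 and 72.6.

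**Figure D5:**
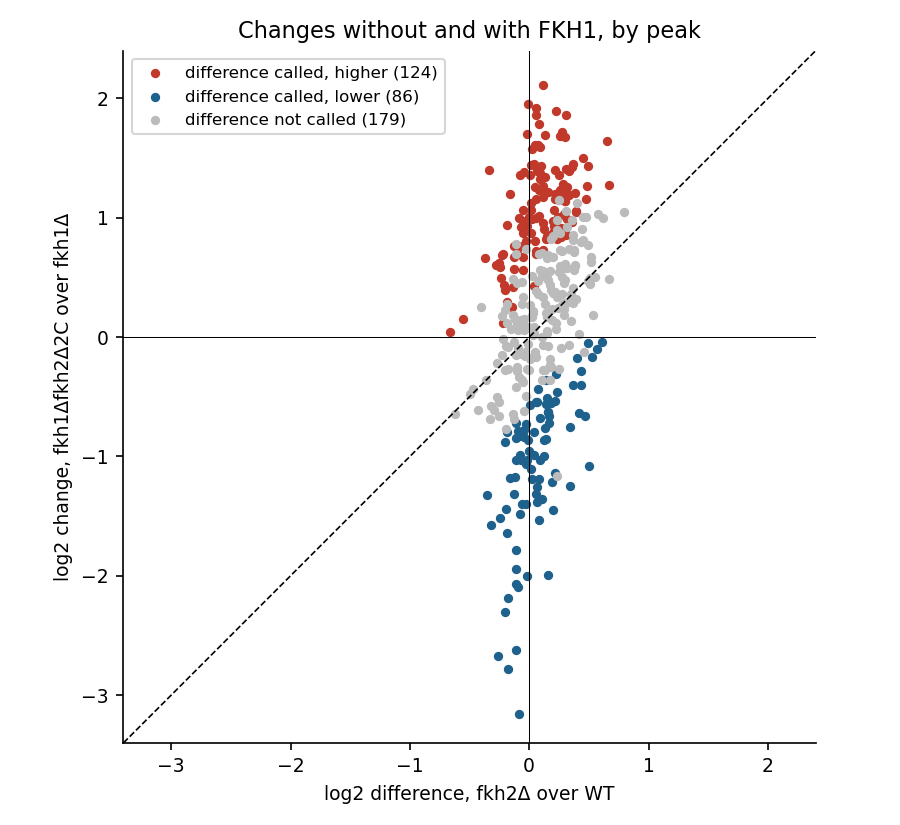
Log2 change of each peak for fkh1Δfkh2Δ2C over fkh1Δ (vertical) against that for fkh2Δ over WT (horizontal), with the dashed line where the 2 are equal. Peaks spread along the vertical axis, and the difference between the contrasts was called at 124 peaks above the line and 86 below it.

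Changes extended along the chromosome beyond the peaks. Of 10863 windows of 1 kb tested, 2131 were higher in fkh1Δfkh2Δ2C (19.6%) and 1700 were lower (15.6%), together 35.3%; without fkh1Δ replicate 2 the higher windows numbered 1300. The higher windows formed 309 stretches with a median length of 5 kb, of which 164 held a peak. The lower ones formed 267 stretches with a median of 3 kb, of which 75 held a peak. Lower stretches of at least 20 kb numbered 24, against 6 higher ones. Within 2.5 kb of a peak, 42.5% of windows were higher and 23.5% lower, and farther than 10 kb from a peak the shares were 6.17% and 7.35%.

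The longest higher stretch, 29 kb from VPS3 to SDH7 on chromosome IV between 1441001 and 1470000, had a mean signal of 30.4 and 27.7 in fkh1Δfkh2Δ2C, against 12.7 and 12.1 in fkh1Δ. The next were 24 kb from VTC5 to GRX3 on chromosome IV between 621001 and 645000, 22 kb from KEL2 to MGA1 on chromosome VII between 967001 and 989000, and 21 kb from UBA3 to GRS2 on chromosome XVI between 682001 and 703000. In these 3, too, both fkh1Δfkh2Δ2C libraries were above both fkh1Δ libraries, with means of 17.6 to 24.4 against 7.63 to 9.99.

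The longest lower stretch was 30 kb from MNS1 to PMT4 on chromosome X between 669001 and 699000, with 23.3 and 22.6 in fkh1Δfkh2Δ2C, against 42.4 and 44.4 in fkh1Δ. It was followed by 29 kb from MSE1 to ESC8 on chromosome XV between 264001 and 293000, with 9.72 and 12.7 in fkh1Δfkh2Δ2C, against 33.6 and 33.4 in fkh1Δ. A stretch of the same length from ADR1 to IVY1 on chromosome IV between 896001 and 925000 had 26.1 and 22.2 in fkh1Δfkh2Δ2C, against 51.0 and 52.4 in fkh1Δ. The allantoin gene stretch, on chromosome IX between 398001 and 426000, was 28 kb long and had the lowest remaining signal of the 4.

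The changes of neighbouring peaks correlated weakly, and some pairs changed in opposite directions at each distance examined. Pearson's r was 0.323 for neighbours at most 15 kb apart, 0.108 at 15 to 30 kb and 0.184 at 30 to 60 kb, as a description. Over all peaks 185 rose and 98 fell, so pairs drawn without regard to place would often be opposite too. The share of such pairs was not computed. Among neighbours at most 15 kb apart, both members of 49 pairs were called and 16 of those pairs changed in opposite directions. At 15 to 30 kb the count was 21 of 62 pairs, and at 30 to 60 kb it was 28 of 74.

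The width of peaks did not separate the strains. At 53 peaks at least 15 kb from any other and with a mean of at least 20 units in every strain, the averaged profile had a half-height width of 6.10 and 4.45 kb in fkh1Δfkh2Δ2C, against 5.30 and 5.60 kb in fkh1Δ. At 5 kb from the centre the signal was 28.5% and 16.8% of that at the centre in fkh1Δfkh2Δ2C, against 23.7% and 25.6% in fkh1Δ. The fkh1Δfkh2Δ2C libraries lay on either side of fkh1Δ in both measures, and the library labelled fkh1Δfkh2Δ2C replicate 1 was the broader one. WT had widths of 4.50 and 4.35 kb.

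Occupancy by Rpb3, a subunit of RNA polymerase II measured by chromatin immunoprecipitation in fkh1Δfkh2Δ2C and WT, was set beside the replication change. In G1-arrested cells its median absolute log2 difference within 2.5 kb of peaks was 0.0629. At the peak between DAL2 and DCG1 Rpb3 signal was 38.3 and 35.8 in fkh1Δfkh2Δ2C, against 36.8 and 35.8 in WT. At the 10 peaks whose BrdU signal changed by at least 2 log2 units, the Rpb3 differences in G1 lay between -0.16 and 0.14. In asynchronous cells Rpb3 differences at the 9 falls were all negative, between -0.53 beside YML119W and -0.07 beside APA1, and at ASP1, the rise, the difference was 0.20. Libraries overlapped at some of these falls, such as YBR200W-A, with 29.4 and 29.4 in fkh1Δfkh2Δ2C, against 34.6 and 28.0 in WT. The median difference was -0.047 over all peaks, -0.077 at peaks called lower, -0.084 at peaks not called and 0.008 at peaks called higher. The median absolute difference over all peaks was 0.160 in those cells. The part of Rpb3 in the BrdU changes was not tested. Over the 389 peaks, Pearson's r between the Rpb3 difference from WT and the BrdU change from fkh1Δ was 0.0864 in G1 and 0.282 in asynchronous cells, as a description. The series holds no Rpb3 library of fkh1Δ, so Rpb3 could not be compared with that strain.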

How the data were processed

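BrdU-labelled DNA was sequenced from 5 strains, and Rpb3-bound DNA and RNA from fkh1Δfkh2Δ2C and WT. The authors deposited a normalized signal per 50 bp bin for each library. No source used here names the aligner, the build or the normalization method. Depth is therefore unknown and no counting interval is given; precision comes from 2 libraries a strain. In the RNA table, 12 columns were not used, and the rest served to place genes.

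Peaks were local maxima of the highest strain mean smoothed over 1000 bp, with a height of 3 or more genome medians (median 2.70) and a spacing of 5000 bp or more, giving 389. Windows of 1 kb numbered 12070, and the lowest 10% by mean signal were left out. Values were tested in limma 3.58.1 (R 4.3.3) as log2(signal + pseudocount), with a pseudocount of 10% of the median (1.73 for peaks, 0.292 for windows), a mean-variance trend, all 10 BrdU libraries in 1 fit, 2-sided tests and Benjamini-Hochberg adjustment. On this scale, changes of low peaks are understated. The fit was tested on simulated data. Python 3.11.15 was used for the rest.

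Replicate numbers did not pair the samples: across peaks, replicate differences of fkh1Δfkh2Δ2C and fkh1Δ had a correlation of -0.219, and between other strains -0.539 to 0.328. Gene names and positions came from the RefSeq R64 gene table, shifted by -50 bp to fit stranded RNA signal (further right of about 200 kb on chromosome XI). A gap between left-arm and right-arm gene names placed each centromere.

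Named were the 10 largest falls and rises by log2 change among called peaks whose groups did not overlap, every peak within 20 kb of an end, the 3 largest changes each way within 20 kb of a centromere, the 10 highest in WT, the 4 longest stretches each way, the 5 largest differences between contrasts each way, and peaks beside CLB2 cluster genes. Members, classes and lists were chosen with earlier results of these data known. Alternatives tried were the pseudocount, peak width and height, windows of 5 kb, centring, no trend, fewer libraries, replicate blocks and leaving out each library.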

Additional observations from a re-analysis of the deposited data

Results flagged for a closer look

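The difference between fkh1Δfkh2Δ2C over fkh1Δ and fkh2Δ over WT was called by limma, with adjustment over all 389 peaks, as higher at 124 peaks and lower at 86. A peak could enter the 389 by being high in fkh1Δfkh2Δ2C alone, which favours higher differences. Each named value below is that difference in log2 units, and each is a description of a peak named because it was among the 5 largest in its direction. The differences were 2.00 between ASP1 and MRPL35, 1.96 inside MIN6, 1.86 inside GSP2, 1.81 between YLR345W and CIS1 and 1.73 inside OPY2. They were -3.08 between DAL2 and DCG1, -2.60 inside DAL1, -2.51 inside YBR200W-A, -2.42 between RDR1 and FRE3 and -2.15 between HSP104 and PAU17. The labels write fkh2Δ2C in the contrast without FKH1 and fkh2Δ in the one with it. What 2C stands for and the FKH1 background therefore cannot be told apart.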

How the results depend on the processing

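Most peak counts stayed within 1.5 times the reported ones, and the exceptions follow; their causes were not tested. For fkh1Δfkh2Δ2C over fkh1Δ, centring the libraries gave 114 higher and 161 lower peaks, and peaks called from WT and fkh2Δ alone, a choice made after seeing the data, gave 119 higher of 319. Leaving out single libraries gave 148 to 216 higher and 78 to 111 lower. The difference between contrasts had 76 higher peaks with centring and 77 to 178 with a library left out, the lower values without fkh1Δ replicate 2 and, at 79, without fkh2Δ replicate 2. For fkh2Δ over WT, higher calls numbered 3 with a pseudocount of 50%, 8 with values within 5000 bp, and 0 to 1 with a library left out; lower calls numbered 1 with that pseudocount and 1 with centring. Windows of 1 kb called higher numbered 1300 to 1892 with a library left out, lowest without fkh1Δ replicate 2, and windows of 5 kb gave 524 higher and 408 lower.

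The labels' replicate numbers did not pair the libraries. A replicate block over all strains gave 187 higher and 99 lower peaks, 122 and 84 for the difference between contrasts, 0 and 0 for fkh2Δ over WT, and 2079 and 1703 windows. Within the 4 libraries the block gave 140 and 75 peaks, and the crossed pairing 185 and 97.

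Of 728 alternative values at 46 named peaks, 687 kept direction and call, 24 lost the call, 12 gained it and 5 changed sign. The sign changed between MAL33 and MAL31 (0.0053 without fkh1Δfkh2Δ2C replicate 2; -0.083 to 0.0053 over left-out libraries), inside ECM9 (-0.28 with centring) and between TAF12 and SWI5 (-0.035 with values within 1000 bp, -0.40 with centring, -0.018 without fkh1Δ replicate 1 and up to 0.11 with another library left out).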
